A study of Homo sapiens with 8 samples.

Results

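The genes described here are the replication-dependent histone genes, measured in HepG2, a human line from a hepatoblastoma that stands in for hepatocytes in culture. They were taken by their symbols in the annotation of the array's probes: H1 followed by a hyphen and a number for linker histones, and H2AC, H2BC, H3C or H4C followed by a number for core histones of the clusters. The symbols gave 56 genes of the 18819 tested, on 73 of 29187 probes. They comprised 9 H1, 14 H2A, 11 H2B, 10 H3 and 12 H4 genes. By symbol alone the set also takes in H1-10, a linker histone made outside S phase from polyadenylated mRNA, and 4 genes of the germ line (H1-6, H1-7, H1-8 and H2AC1).

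Histones are the proteins around which DNA is wound. The H2A, H2B, H3 and H4 proteins form the core of the nucleosome, and H1 binds the DNA where it enters and leaves that core. Replication-dependent histone genes lie in clusters without introns and are transcribed in S phase, when new DNA must be packed. Their mRNAs end in a stem-loop bound by SLBP in place of a poly(A) tail, although some of the genes can also yield polyadenylated mRNA, mainly in cells that leave the cycle.

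RNA was compared on 8 arrays with 2 colours, each holding 1 treated sample and untreated cells. Linalool, a fragrant monoterpene alcohol of plant oils, was given at 1 mM to lipid-loaded cells (2 arrays). Fenofibrate, a drug against high blood lipids that acts on the nuclear receptor PPARα, was given at 100 µM to lipid-loaded cells (3 arrays). Lipid-loaded cells without a compound made up the last 3 arrays. All 3 treated groups had first spent 24 h with 400 µM oleate bound to fatty acid-free albumin at a ratio of 6.6, and then 24 h in medium without serum, with or without the compound. The oleate comes from the protocol, while another label names oleate with palmitate, so the fatty acid given is not settled. The untreated cells were HepG2 cells without loading, and the labels do not say whether they also spent time without serum. The labels call the arrays biological replicates but do not name separate cultures, so p-values cover the scatter of these samples alone, and that scatter may be technical.

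The values were log2 ratios between the treated and the untreated sample of an array. Which sample is the numerator is not given in the sources used here, so every ratio is reported with its deposited sign, positive or negative, and no gene is called up or down relative to untreated cells. The treated sample carried Cy3 and the untreated sample Cy5 on all arrays, with no dye swap, so a dye effect of a gene stays in its ratio. Oligo(dT) primers started the reverse transcription, and they sample histone mRNAs without a poly(A) tail poorly. In such bulk RNA, a change in the number of cells in S phase and a change of RNA per cell cannot be told apart. A ratio carries no level, so the presence of a cell type could not be read from its markers. Of 10 measured hepatocyte markers, 9 were called positive in lipid-loaded cells by limma at an adjusted p under 0.05 and none negative, with 24.1% of all genes called positive and 10.7% negative. Of 16 markers of other cell types, 1 was called positive and 6 negative there, against the same 24.1% and 10.7% of all genes. The third fenofibrate array stood apart from the rest. Its correlation with the mean of the other 7 arrays was 0.127 over all genes, against 0.44 to 0.716 for the other arrays, a description over genes that share their arrays.

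Promoter sequences are shown for the called negative histone genes for which RefSeq's promoter table (GRCh38.p14) had an entry. They show the short elements through which these families are known to be transcribed. The 120 bases before the start of transcription are given 5′ to 3′ on the gene's own strand, the minus strand for all 4 genes. Capitals mark exact matches to the octamer ATTTGCAT of H2B promoters, to the CCAAT box and to TATAAA, each on either strand, so that ATTGG is a CCAAT box on the other strand. The windows are chr6:26043714-26043833 for H2BC3, chr6:26032100-26032219 for H3C2, chr6:27838376-27838495 for H2AC15 and chr6:27873535-27873654 for H4C13.
H2BC3: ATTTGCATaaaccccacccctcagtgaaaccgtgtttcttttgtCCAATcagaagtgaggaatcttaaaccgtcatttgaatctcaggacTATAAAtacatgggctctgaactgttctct
H3C2: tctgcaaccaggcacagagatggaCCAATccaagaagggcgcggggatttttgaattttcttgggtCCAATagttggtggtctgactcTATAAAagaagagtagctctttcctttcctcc
H2AC15: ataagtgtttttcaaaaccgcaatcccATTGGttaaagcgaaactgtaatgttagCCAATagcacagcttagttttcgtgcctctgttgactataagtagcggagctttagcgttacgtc
H4C13: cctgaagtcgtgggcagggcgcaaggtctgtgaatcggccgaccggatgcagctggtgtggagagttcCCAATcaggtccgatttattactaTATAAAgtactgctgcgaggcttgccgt

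H2BC3 held the octamer, a CCAAT box and TATAAA in this window. H3C2 held CCAAT boxes and TATAAA, H2AC15 CCAAT boxes without TATAAA, and H4C13 a CCAAT box and TATAAA. In the 250 bases before the start, 51 of the 56 histone genes had a promoter entry (H2AC12, H3C11, H3C12, H4C1 and H4C3 had none). The octamer was found in 20 of the 51 promoters (39.2%), against 1.66% of the 27305 promoters in the table. It stood in 10 of 13 H2A, 9 of 11 H2B and 1 of 8 H3 promoters, and in no promoter of the H1 or H4 families. In 5 head-to-head pairs of H2A and H2B genes the starts lay 223 to 248 bases apart. Their windows overlap, so 1 octamer can count for both genes of a pair. CCAAT was found in 84.3% of the histone promoters against 33% of all promoters, and TATAAA in 58.8% against 11.1%. The letters AAACACA, known as the AC box of H1 promoters, were found in 7 of 9 H1 promoters and in no promoter of another histone family, against 4.95% of all promoters. None of the 4 motifs contains another on either strand. A match describes the letters and not a bound site. The median ratio of lipid-loaded cells was −0.22 for the 20 genes with the octamer and −0.16 for the 31 without it. It was −0.25 for the 30 genes with TATAAA and −0.17 for the 21 without. With the AC box it was −0.01 over 7 genes, and without it −0.22 over 44.

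In lipid-loaded against untreated cells, 7 of the 56 histone genes were called by limma at an adjusted p under 0.05 (12.5%), against 34.8% of all genes. The positive calls were H4C3 and H1-10, with 24.1% of all genes called positive. The negative calls were H2BC3, H3C2, H2AC15, H4C13 and H3C12, with 10.7% of all genes called negative. The histone genes ranged from −1.31 to 0.82 on the log2 scale around a median of −0.20, while the median of all genes was −0.00315. In all, 38 of the 56 group means were negative and 18 positive. The calls depended on how the arrays were scaled and on single arrays. The SD over the probes of an array was 0.713, 0.589 and 0.554 for the lipid-loaded arrays, against 0.462 to 0.544 for the others. The cause of this wider spread was not tested. No call was left when the arrays were scaled to the same spread or when lipid-loaded replicate 1 was left out. In both cases 0 of all genes were called either, with smallest adjusted p-values of 0.0594 and 0.0987. Without lipid-loaded replicate 2, 4 of the histone genes were called, and without replicate 3 or after quantile normalization 2 were. In the same order 2010, 3087 and 2877 of all genes were called, against 6555 in the main fit. The sign of all 7 was the same under every alternative run. Each of the 7 had 1 sign on all 3 lipid-loaded arrays, so leaving out an array could not turn it.

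**Figure D1:**
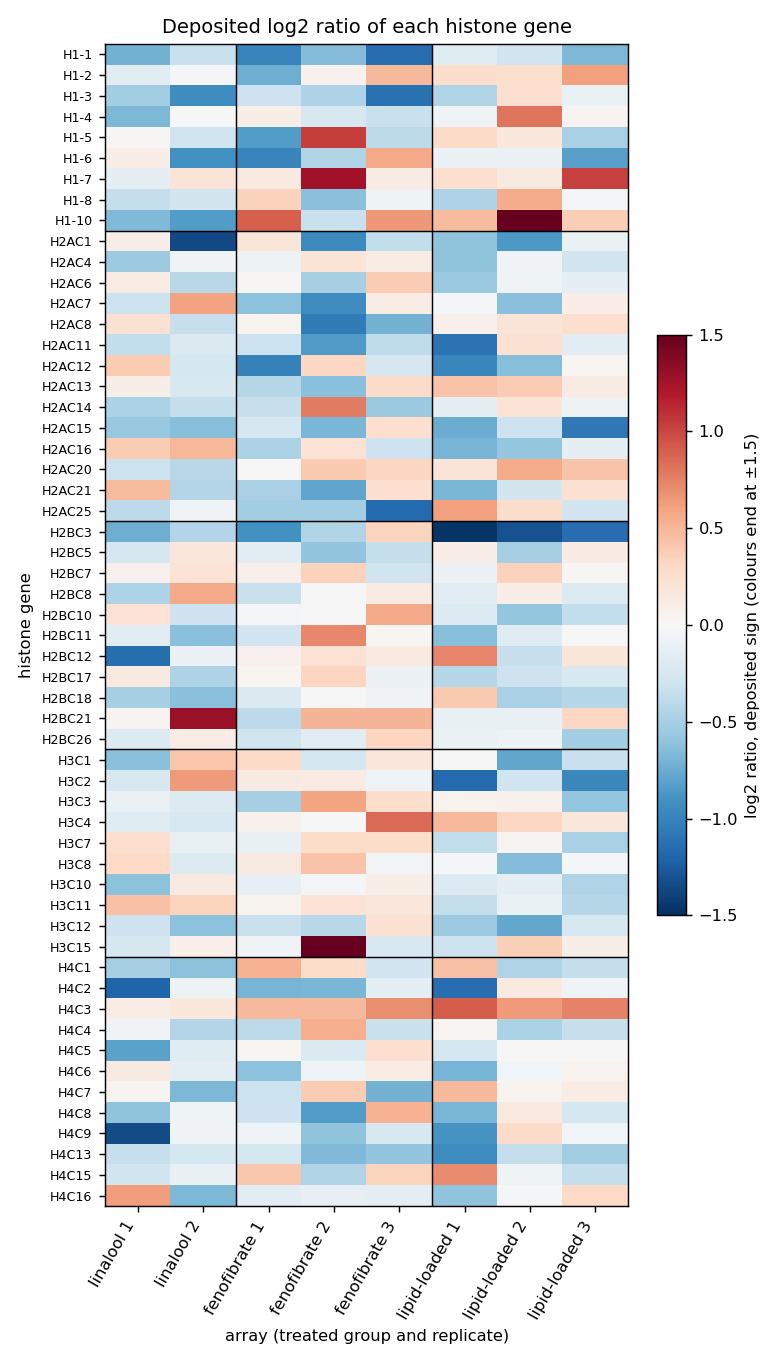
Deposited log2 ratio of each of the 56 histone genes (rows, by family) on each of the 8 arrays (columns, by group: linalool, fenofibrate, lipid-loaded), with colour giving size and sign. H4C3 is positive and H1-1 and H4C13 are negative on all 8 arrays, and H2BC3 has the lowest lipid-loaded mean (−1.31).

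H2BC3, a gene for histone H2B in the main cluster on chromosome 6, had the most negative ratios. It stood at −0.73 and −0.44 on the linalool arrays, at −0.91, −0.45 and 0.34 on the fenofibrate arrays, and at −1.47, −1.30 and −1.14 on the lipid-loaded arrays. The third fenofibrate array was the sole positive one. Its lipid-loaded mean was −1.31 (SE 0.217, adjusted p = 0.0135). H3C2, a gene for histone H3 that is a near neighbour of H2BC3 on chromosome 6, had ratios of −0.24 and 0.63 with linalool, of 0.13, 0.12 and −0.07 with fenofibrate, and of −1.16, −0.30 and −0.97 in lipid-loaded cells. Both compound groups straddled 0. The lipid-loaded mean was −0.81 (SE 0.211, adjusted p = 0.0182). H2AC4, an H2A gene measured between these genes along the chromosome, had a lipid-loaded mean of −0.32 (adjusted p = 0.155).

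H2AC15, a gene for histone H2A, stood at −0.56 and −0.64 with linalool, at −0.25, −0.69 and 0.25 with fenofibrate, and at −0.75, −0.31 and −1.07 in lipid-loaded cells. The groups overlapped, and 7 of the 8 arrays were negative. The lipid-loaded mean was −0.71 (SE 0.206, adjusted p = 0.0256). H4C13, a gene for histone H4, stood at −0.35 and −0.27 with linalool, at −0.26, −0.66 and −0.59 with fenofibrate, and at −0.95, −0.36 and −0.52 in lipid-loaded cells. It was negative on all 8 arrays, with overlapping groups and a lipid-loaded mean of −0.61 (SE 0.170, adjusted p = 0.0225). H3C12, an H3 gene next to H4C13 among the measured histone genes, stood at −0.32 and −0.62 with linalool, at −0.34, −0.42 and 0.23 with fenofibrate, and at −0.54, −0.76 and −0.24 in lipid-loaded cells. It too was negative on all arrays except fenofibrate replicate 3, and its lipid-loaded mean of −0.52 lay close to the threshold (SE 0.183, adjusted p = 0.0478).

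H4C3, a gene for histone H4, was positive in every group. It stood at 0.12 and 0.16 with linalool, at 0.49, 0.49 and 0.70 with fenofibrate, and at 0.91, 0.64 and 0.75 in lipid-loaded cells. The ranges of fenofibrate and lipid-loaded cells overlapped. The lipid-loaded mean was 0.76 (SE 0.151, adjusted p = 0.0135). H1-10 stood at −0.67 and −0.84 with linalool, at 0.90, −0.34 and 0.65 with fenofibrate, and at 0.48, 1.62 and 0.37 in lipid-loaded cells. Both linalool arrays were negative and all lipid-loaded arrays positive, with replicate 2 far above the others. The lipid-loaded mean was 0.82 (SE 0.273, adjusted p = 0.038), and it was 0.43 without lipid-loaded replicate 2 (adjusted p = 0.259). H1-7, an H1 of spermatids, had the third highest mean at 0.47 (SE 0.247, adjusted p = 0.148), from values of 0.25, 0.13 and 1.03.

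**Figure D2:**
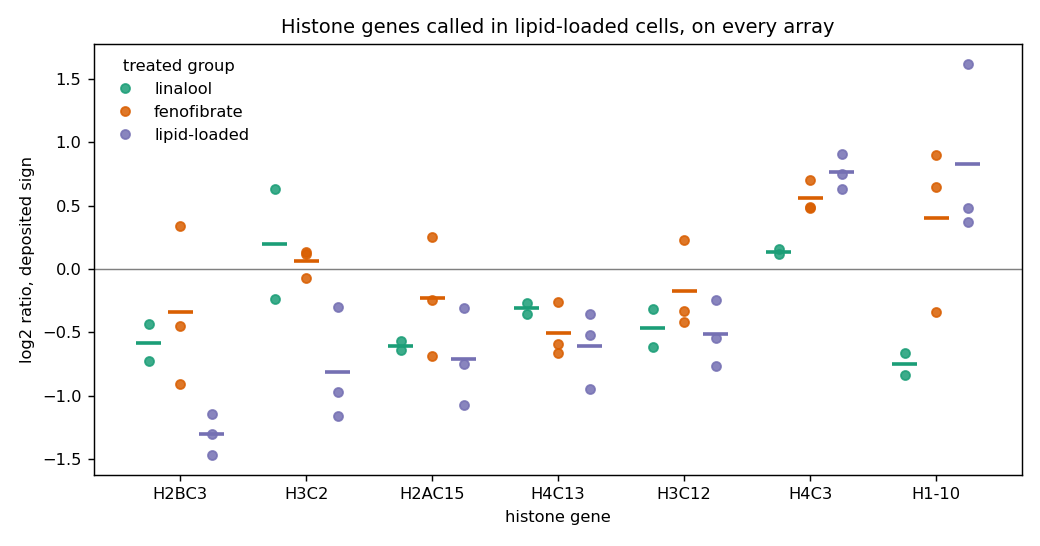
Deposited log2 ratios of the 7 histone genes called in lipid-loaded cells, as points for single arrays and bars for group means, with linalool (n = 2), fenofibrate (n = 3) and lipid-loaded (n = 3) side by side. The lipid-loaded arrays of H2BC3 range from −1.47 to −1.14, and those of H1-10 from 0.37 to 1.62.

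The sign of a gene's ratio was also compared between the arrays of a group. In lipid-loaded cells 9 of the 56 were positive on all 3 arrays (16.1%, against 38.3% of all genes) and 19 were negative on all 3 (33.9%, against 27.9%). With fenofibrate 5 were positive on every array (8.93%, against 21.5%) and 10 negative (17.9%, against 15.3%). With linalool, with 2 arrays to agree, 5 were positive (8.93%, against 38.6%) and 27 negative (48.2%, against 27.8%). These counts are descriptions, and the 3 comparisons share the untreated cells. The median absolute group mean of the histone genes was 0.243 with linalool, 0.182 with fenofibrate and 0.265 in lipid-loaded cells, against 0.246, 0.22 and 0.435 over all genes. The median SD between arrays was larger for the histone genes in every group, at 0.267, 0.378 and 0.343 for linalool, fenofibrate and lipid-loaded cells, against 0.183, 0.326 and 0.27 over all genes. Between lipid-loaded arrays the correlation over the 56 genes was 0.346 to 0.453, against 0.541 to 0.623 over all genes. Between fenofibrate arrays it was 0.0769 for replicates 1 and 2, against 0.356 over all genes, but 0.214 for replicates 1 and 3, against 0.0982, and 0.0761 for replicates 2 and 3, against 0.0872. Between the linalool arrays it was −0.0287, against 0.342.

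By family, the 9 linker H1 genes had medians of −0.34 with linalool, −0.11 with fenofibrate and 0.02 in lipid-loaded cells. The lipid-loaded median turned to −0.00823 when each array was centred on its median. The 14 H2A genes had medians of −0.19, −0.29 and −0.25 in the same order of groups, and the 11 H2B genes of −0.05, 0.04 and −0.17. The H2B value with fenofibrate turned to −0.00556 under median centring. The 10 H3 genes had medians of −0.10 with linalool, 0.13 with fenofibrate and −0.27 in lipid-loaded cells, and the 12 H4 genes of −0.31, −0.17 and −0.17. With fenofibrate, 8 of 10 H3 genes had a positive mean, against 2 of 14 H2A genes, and neither family had a call. In lipid-loaded cells the calls fell on 1 H1 gene (positive), 1 H2A and 1 H2B gene (negative), 2 H3 genes (negative) and 2 H4 genes (1 of each sign). Over all genes 24.1% were called positive and 10.7% negative there. No scaling moved the median of all genes by 0.1 or more.

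**Figure D3:**
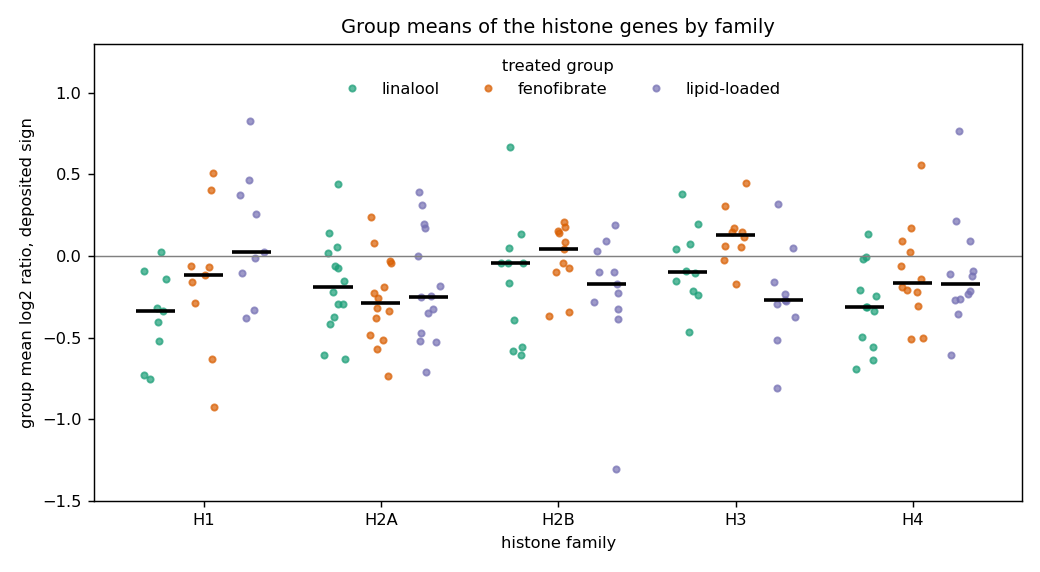
Group mean log2 ratio (deposited sign) of each histone gene by family, with linalool, fenofibrate and lipid-loaded side by side for each family and lines at the family medians. The H3 genes have a median of 0.13 with fenofibrate and of −0.27 in lipid-loaded cells, and H2BC3 is the lowest point.

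With linalool, no histone gene and none of all genes (0%) passed limma's adjusted threshold against untreated cells. At an unadjusted p under 0.05 there were 7 of the 56 histone genes and 2326 of the 18819 genes tested. The histone median was −0.21, against 0.0388 over all genes, and 43 of the 56 means were negative, while 54.3% of all genes had a positive mean. The most negative means were those of H1-10, at −0.75 (SE 0.334, adjusted p = 0.398), of the linker histone H1-3, at −0.73 from values of −0.52 and −0.93 (SE 0.249, adjusted p = 0.329), and of the H4 gene H4C9. H4C9 averaged −0.70 from −1.34 and −0.05, so that 1 array made up nearly all of its mean. The highest means were those of H2BC21, H2AC16 and H3C11. H2BC21, an H2B gene known to form polyadenylated mRNA, averaged 0.67 from 0.04 and 1.29. H2AC16 had ratios of 0.38 and 0.50, and H3C11 of 0.43 and 0.33, so both of these were positive on both arrays.

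With fenofibrate, 0 of the histone genes and 0% of all genes were called against untreated cells. An unadjusted p under 0.05 was reached by 7 of the 56 histone genes and 3410 of the 18819 genes tested. The histone median was −0.06, against 0.0233 over all genes. It was 0.0204 without fenofibrate replicate 1, so its sign rested on that array, and −0.102 without replicate 3. H1-1, a replication-dependent linker histone, had the most negative mean at −0.93 (SE 0.175, adjusted p = 0.132), from −0.99, −0.64 and −1.15. It was negative on all 8 arrays of the study, at −0.71 and −0.33 with linalool and at −0.18, −0.29 and −0.67 in lipid-loaded cells. Fenofibrate replicates 1 and 3 lay below all arrays of the other groups. H2AC25 averaged −0.74 (SE 0.207, adjusted p = 0.14) from −0.53, −0.52 and −1.17. H1-3 averaged −0.63 (SE 0.204, adjusted p = 0.162) from −0.30, −0.47 and −1.12, the third array again being the lowest. The highest means were those of H4C3 at 0.56 (SE 0.151, adjusted p = 0.139), H1-7 at 0.51 from 0.14, 1.26 and 0.12, and H3C15 at 0.45 from −0.05, 1.64 and −0.24. For H1-7 and H3C15 the second array held most of the mean. Without the third array, H1-1 stood at −0.82, H2AC25 at −0.52, H1-3 at −0.39 and H4C3 at 0.49, and none was called.

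The 5 somatic replication-dependent linker histones, H1-1 to H1-5, all had negative means with linalool (median −0.34) and with fenofibrate (median −0.16). In lipid-loaded cells 3 were negative and 2 positive (median −0.01). None of them was called in any group, with 34.8% of all genes called in lipid-loaded cells and 0% with either compound. H1-2, for example, averaged −0.09 with linalool, −0.06 with fenofibrate and 0.37 in lipid-loaded cells, and H1-4 averaged −0.34, −0.16 and 0.26 in the same order. The 4 germ line genes had medians of −0.36, −0.20 and −0.15 with no call. Leaving them and H1-10 out gave 51 genes with medians of −0.16 with linalool, −0.06 with fenofibrate and −0.21 in lipid-loaded cells. These 51 held 6 calls in lipid-loaded cells (1 positive, 5 negative), or 11.8%, against 34.8% of all genes.

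The differences between the treated groups were tested in the same fit. Compared with lipid-loaded cells without a compound, linalool gave no call among the histone genes or among all genes (0%). An unadjusted p under 0.05 was reached by 6 of the 56 histone genes and 2176 of the 18819 genes tested. The largest differences were −1.58 for H1-10 (SE 0.431, adjusted p = 0.344), 1.01 for H3C2 (SE 0.334, adjusted p = 0.355) and 0.91 for H2AC16 (SE 0.291, adjusted p = 0.355). The H3C2 difference was 1.45 without linalool replicate 1 and 0.57 without linalool replicate 2. These 3 genes were picked for their large differences. For 10.7% of the histone genes, against 7.52% of all genes, every linalool array had the opposite sign of every lipid-loaded array. H2AC16, for example, had ratios of 0.38 and 0.50 with linalool, against −0.70, −0.58 and −0.14 in lipid-loaded cells. Fenofibrate against lipid-loaded cells also gave no call (0% of all genes). Here 5 of the 56 histone genes and 1934 of the 18819 genes tested had an unadjusted p under 0.05. The largest differences of fenofibrate from lipid-loaded cells were 0.96 for H2BC3 (SE 0.306), −0.93 for H2AC25 (SE 0.293) and 0.87 for H3C2 (SE 0.299), each with an adjusted p of 0.472. The H2BC3 difference was 0.63 without fenofibrate replicate 3. H2AC25 had 0.61, 0.26 and −0.29 in lipid-loaded cells. Linalool against fenofibrate gave no call either (0% of all genes). For this pair 2 of the 56 histone genes and 944 of the 18819 genes tested had an unadjusted p under 0.05. The largest differences there were −1.16 for H1-10 (SE 0.431, adjusted p = 0.949), −0.75 for H2BC12 (SE 0.368, adjusted p = 0.966) and −0.73 for H4C1 (SE 0.336, adjusted p = 0.966). The H2BC12 difference was −0.23 without linalool replicate 1 and −1.27 without linalool replicate 2. Over the 56 genes the median difference was −0.03 for linalool minus lipid-loaded, 0.04 for fenofibrate minus lipid-loaded and −0.13 for linalool minus fenofibrate, against −0.0613, −0.0577 and 0.0053 over all genes. These differences share arrays and are not independent of each other.

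Because priming was from oligo(dT), the histone genes known to yield polyadenylated mRNA were set beside the rest. Of this list H1-10, H2AC6, H2BC5, H2BC12 and H2BC21 were measured. Their medians were −0.15 with linalool, 0.14 with fenofibrate and 0.03 in lipid-loaded cells, and those of the other 51 histone genes were −0.21, −0.07 and −0.23. In lipid-loaded cells H1-10 was the only called gene of the 5 (20%), and the other 51 held 6 calls (11.8%). Both shares were below the 34.8% of all genes. H2AC6 averaged −0.15 with linalool, −0.03 with fenofibrate and −0.25 in lipid-loaded cells. H2BC5 averaged −0.04, −0.37 and −0.09 in the same order, and H2BC12 −0.61, 0.14 and 0.19. H2BC12 had −1.13 and −0.08 with linalool, arrays far apart from each other, and 0.06, 0.22 and 0.15 with fenofibrate, which lay close together. H2BC21 averaged 0.67 with linalool, 0.21 with fenofibrate and 0.03 in lipid-loaded cells. How far each probe read polyadenylated or stem-loop mRNA was not tested.

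Core histone genes of 1 family are similar in sequence, so which of them a probe read is uncertain. Probe sequences were not used here. Among the histone genes, 43 had 1 probe and 13 had several. In each group 7 of these 13 had probes with means of opposite sign. In lipid-loaded cells those 7 were H2BC18, H2BC26, H2BC5, H2BC7, H3C15, H4C15 and H4C5. The widest gap was that of H4C15, whose probes averaged −0.62 and 0.81 in lipid-loaded cells, the positive one from 2.23, 0.52 and −0.31. H2BC26 had probe means of −0.64 and 0.19, and H2BC7, with 5 probes, spanned −0.13 to 0.27. Over the 13 genes the median gap between the outermost probes was 0.402. The probes of H2AC20, H4C13, H4C2 and H4C3 shared a sign in all groups. Of the 7 called genes, H4C3 and H4C13 had 2 probes each, and those of H4C3 gave 0.75, 0.57 and 0.67 on 1 probe and 1.07, 0.70 and 0.83 on the other in lipid-loaded cells.

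**Figure D4:**
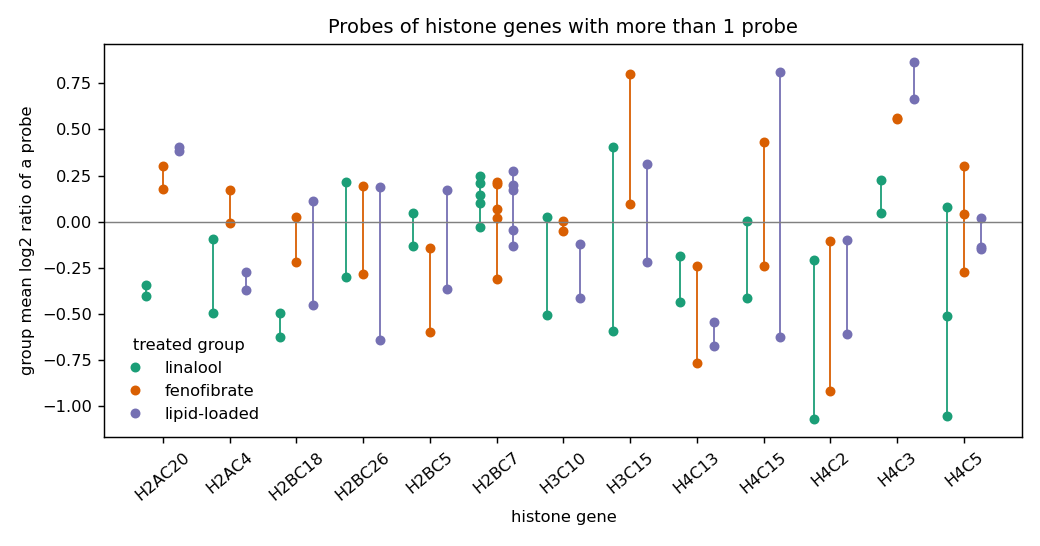
Mean log2 ratio (deposited sign) of each probe of the 13 histone genes with several probes, with linalool, fenofibrate and lipid-loaded side by side and a line joining the probes of a gene. The probes of H4C15 lie at −0.62 and 0.81 in lipid-loaded cells, while both probes of H4C3 lie above 0 in every group.

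By place, 44 of the histone genes lie on chromosome 6, 8 on chromosome 1, and 2 each on chromosomes 3 and 12. The medians on chromosome 6 were −0.23 with linalool, −0.07 with fenofibrate and −0.26 in lipid-loaded cells, with 1 positive and 5 negative calls there. On chromosome 1 they were −0.15, 0.02 and 0.04, with no call. The remaining call was H1-10 on chromosome 3. Of all genes, 24.1% were called positive and 10.7% negative in lipid-loaded cells. H2A and H2B genes often lie head to head and share the stretch between their starts. In 5 such pairs the starts were 223 to 248 bases apart, and in lipid-loaded cells the pair H2AC11 and H2BC11 had means of −0.35 and −0.28. H2AC25 and H2BC26 had 0.19 and −0.23, and the genes of H2AC7 with H2BC7 and of H2AC8 with H2BC8 also had opposite signs, all without a call. The pair H2AC20 and H2BC21 had 0.39 and 0.03.

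Genes that serve the same histones were described from lists by role. S-phase replication genes were called positive in lipid-loaded cells for 26 of 34 members and negative for none, with a median of 0.71, against 24.1% of all genes called positive. PCNA, the sliding clamp of DNA polymerase, stood at 0.95 (SE 0.166) and TK1, thymidine kinase, at 0.96 (SE 0.176). On single arrays the median of this list was −0.06 and −0.07 with linalool, 0.40, 0.26 and −0.03 with fenofibrate, and 0.97, 0.66 and 0.53 in lipid-loaded cells. The median of the histone genes on the same arrays was −0.25 and −0.21, then −0.19, −0.05 and 0.10, and −0.17, −0.06 and −0.10. The histone median was on the other side of 0 from the replication genes on all 3 lipid-loaded arrays. It was so on all 3 fenofibrate arrays too, with both signs turned on the third. On the linalool arrays both medians were negative. Whether poor priming of mRNAs without a poly(A) tail plays a part in this was not tested.

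The list for histone mRNA processing also holds regulators of histone transcription, such as NPAT, and general RNA factors, such as SNRPB and EXOSC10. Of its 28 measured members 18 were called positive, with a median of 0.60, against 24.1% of all genes called positive. SLBP, which binds the stem-loop, stood at 0.55 (SE 0.157, adjusted p = 0.0233). LSM10, a part of the U7 particle that directs cleavage of the mRNA, stood at 0.69 (SE 0.211, adjusted p = 0.0293), and ERI1, an exonuclease that trims its end, at 0.60 (SE 0.169, adjusted p = 0.0233). NPAT, the coactivator of histone transcription, had 0.20 (adjusted p = 0.468) and HINFP, which binds H4 promoters, 0.26 (adjusted p = 0.412), and neither was called. Nor did limma call LSM11 (0.29, adjusted p = 0.404), ZNF473 (0.18, adjusted p = 0.406) or SNRPE. SNRPE was the 1 member with a negative mean (−0.345, adjusted p = 0.245). The genes named so far from this list were picked after their values were seen. SNRPB, a protein of the Sm ring, stood at 0.90 (SE 0.151), and EXOSC10, a nuclease of the nuclear exosome, at 0.80 (SE 0.157). Histone chaperones, which hand histones to DNA, were called positive for 16 of 29 members (24.1% of all genes), with a median of 0.65, among them SSRP1 of the FACT complex at 0.87 (SE 0.158) and NASP, which holds soluble H3 and H4, at 0.80 (SE 0.154). The genes that make poly(A) tails were called positive for 11 of 16 members (24.1% of all genes), with a median of 0.69, among them PABPN1 at 0.88 (SE 0.163) and PAPOLA, the poly(A) polymerase, at 0.77.

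The genes listed as replacement histones were called positive for 5 of 14 measured members and negative for 1, with a median of 0.24. Of these members 42.9% were called in either direction, against 34.8% of all genes, of which 24.1% were called positive and 10.7% negative. The positive calls were H2AZ1 at 0.96 (SE 0.160, adjusted p = 0.0135), MACROH2A2 at 0.82 (SE 0.158), the centromeric H3 CENPA at 0.72 (SE 0.164), H3-5 at 0.72 (SE 0.156) and MACROH2A1 at 0.71 (SE 0.165). The testis gene H3-4 was called negative at −0.71 (SE 0.236, adjusted p = 0.039). With fenofibrate the medians were 0.16 for replacement histones, 0.15 for histone mRNA processing, 0.32 for chaperones, 0.22 for replication and 0.29 for poly(A) genes. With linalool they were −0.07, 0.17, 0.14, −0.05 and 0.16 in that order, and none of these lists had a call with either compound. H2BW1, a testis H2B among the replacement histones, averaged −1.02 with linalool (SE 0.208, adjusted p = 0.147) and was the 1 call of that list when arrays were scaled or weighted. Scaling called 124 of all genes with linalool, and array weights 99. No list kept a call in lipid-loaded cells without lipid-loaded replicate 1, or once all arrays were given an equal spread. In both settings 0 of all genes were called, so no list could keep one.

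**Figure D5:**
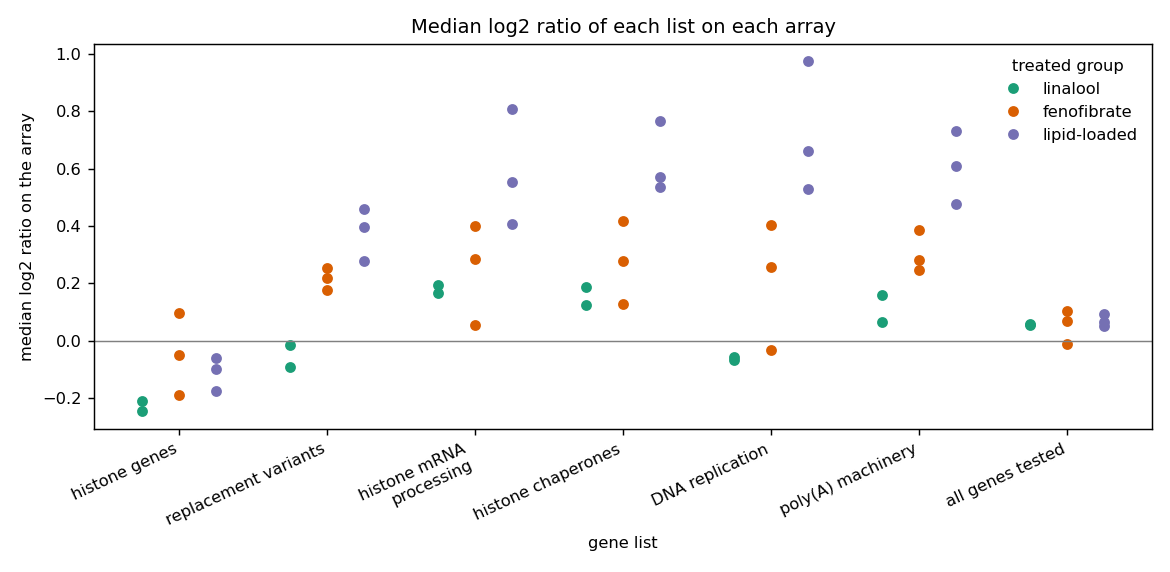
Median log2 ratio (deposited sign) on each array of the histone genes and of the related gene lists, with 1 point per array and linalool, fenofibrate and lipid-loaded side by side. The replication genes reach 0.97, 0.66 and 0.53 on the lipid-loaded arrays, where the histone genes lie at −0.17, −0.06 and −0.10.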

How the data were processed

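The authors deposited a table of log2 ratios of the 2 channels for 29187 probes on 8 arrays, with 4 missing values. The scale was settled from the values: taken as log2, they returned ratios with 3 decimals on every array after removal of 1 constant (tolerance 1e-04, tested for ratios of 0.2 to 2). Array means lay within 5.9e-05 of 0 and medians between −0.012 and 0.0865. By array, medians were 0.0452 and 0.0507 (linalool), 0.0865, 0.0635 and −0.012 (fenofibrate) and −0.0048, 0.0402 and 0.058 (lipid-loaded). For the direction of the ratio, the background correction and the normalization, the entry is not given in the sources used here. Per the labels' protocols, reverse transcription started from 8 µg of RNA and oligo(dT) primers.

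Symbols came from the platform annotation, with 1 symbol for 25053 probes and none for 4134. Probes of a gene were averaged, giving 18821 genes. The 18819 with 2 or more values in each group entered the tests. Each group was set against a ratio of 0 (the spread of the untreated cells themselves is not in this test) and against the other groups with limma 3.58.1 (R 4.3.3, with data.table in version 1.17.8; lmFit and eBayes, two-sided) in 1 fit with a coefficient per group. Adjusted p-values are Benjamini-Hochberg over all genes tested, with calls under 0.05, and SE is that of the fit. The number of arrays limits the precision.

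The histone genes and the lists were chosen with earlier results of these data known. Genes were named where called, among the 3 highest or lowest means of a group, among the 3 largest differences, as poly(A)-forming, or as having probes of opposite sign, and for other lists as up to 4 members with the largest moderated t in lipid-loaded cells. Others named are examples picked after their values were seen. Promoters, chromosomes and distances between starts came from RefSeq tables. Alternatives were quantile normalization, scaling to the same spread, median centring, other summaries of probes, array weights, robust eBayes, groups alone, the replicate block and leaving out each array.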

Additional observations from a re-analysis of the deposited data

Results flagged for a closer look

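For 9 differences between groups, every array of 1 group had a positive ratio and every array of the other a negative one. Each difference was tested with limma in the fit over all genes, and none passed at an adjusted p under 0.05. For linalool minus lipid-loaded these were H1-10 (−1.58, adjusted p = 0.344), H2AC16 (0.914, adjusted p = 0.355), H2AC20 (−0.768, adjusted p = 0.355), H3C11 (0.678, adjusted p = 0.369), H3C4 (−0.532, adjusted p = 0.512) and H1-2 (−0.465, adjusted p = 0.598). For linalool minus fenofibrate they were H2BC12 (−0.75, adjusted p = 0.966) and H3C4 (−0.521, adjusted p = 0.968). For fenofibrate minus lipid-loaded it was H3C11 (0.442, adjusted p = 0.472). These were 10.7%, 3.57% and 1.79% of the histone genes, against 7.52%, 4.16% and 1.59% of all genes. The groups hold under 4 arrays, so single arrays were not tested as outliers.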

How the results depend on the processing

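In lipid-loaded cells, quantile normalization left 2 of the histone genes (1 positive, 1 negative) and 2877 of all genes called, and scaling to the same spread left 0 of either. Leaving out single arrays gave 0 to 7 histone genes and 0 to 7772 of all genes. The lowest counts came without lipid-loaded replicate 1, and without replicates 2 and 3 there were 2010 and 3087 genes. With the replicate block H1-10 lost its call (0.825, adjusted p = 0.0631) and the other 6 were kept. Whether the numbers pair the arrays was not settled. In their deviations from the group mean, same-numbered arrays of different groups correlated by −0.021 to 0.14 and differently numbered ones by −0.141 to 0.0664. H3C12 also lost its call when fenofibrate replicate 1 or 2 or either linalool array was left out.

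With linalool, scaling gave 124 calls and array weights 99 over all genes, and leaving out arrays 0 to 6. With fenofibrate, array weights gave 1 and leaving out arrays 0 to 1. Leaving out arrays gave 0 to 1 for linalool minus lipid-loaded and 0 to 3 for linalool minus fenofibrate. No histone gene was called in these comparisons under any alternative run.

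The histone median with linalool was −0.267 after quantile normalization, −0.26 after scaling, −0.257 after median centring and −0.239 with the replicate block, and −0.246 to −0.209 with arrays left out. For linalool minus lipid-loaded it was −0.132 after quantile normalization, −0.178 after scaling, 0.00377 over the genes whose probes all share a sign (a turned sign with fewer genes), and −0.148 to −0.00931 with arrays left out. With arrays left out it ran from −0.211 to −0.1 in lipid-loaded cells, from −0.109 to 0.0204 with fenofibrate, from 0.00753 to 0.119 for fenofibrate minus lipid-loaded and from −0.184 to −0.0449 for linalool minus fenofibrate.

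Of 696 values of named genes, 656 kept direction and side of the threshold, 32 lost their call and 8 changed sign, none of which had been called. With linalool H2BC5 turned to 0.0163 with the replicate block, and leaving out arrays took it from −0.254 to 0.172 and H2AC6 from −0.416 to 0.106. With fenofibrate H3C15 ran from −0.146 to 0.793 and H2AC6 from −0.238 to 0.203. In lipid-loaded cells H2BC12 ran from −0.0834 to 0.454, H2BC5 from −0.204 to 0.108 and H2BC21 from −0.109 to 0.104. The cause of these changes was not tested. Without 1 linalool array the other is assumed to vary like the other groups. The alternatives on brightness trend and dim probes were not run, since the table used here gives no brightness, so signal over background is unknown.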
